A study of Mus musculus with 11 samples.

Results

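The 10 genes followed here code for metallothioneins and enzymes of oxidative stress defence: Mt1, Mt2, Hmox1, Nqo1, Gpx3, Gclc, Txnrd1, Cat, Sod1 and Sod2. They were picked by symbol from the 28692 genes of the deposited count matrices, where each symbol was found, and their levels were followed through the tubular, stromal, endothelial and immune cells of 11 mouse kidney libraries. All kidneys came from male C57Bl/6 mice. The UIR kidneys (n = 3 libraries) had undergone unilateral ischemia/reperfusion by clamping the left renal pedicle, and the UUO kidneys (n = 3) unilateral ureteral obstruction by ligation of the left ureter. Both were taken 28 days after surgery, and the control kidneys (n = 5) were naive kidneys from mice matched in strain, sex and age, which was 10 weeks. Kidneys were dissociated with a protease in the cold, and single cells were captured with the 10x Chromium 3' v3 chemistry, which counts the 3' ends of transcripts as unique molecular identifiers (UMIs).

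Metallothioneins are small proteins rich in cysteine that bind zinc, copper and cadmium and also scavenge reactive oxygen. Their transcription is driven by MTF1, which senses free zinc and binds metal response elements, and by glucocorticoids. Superoxide made by the respiratory chain and by NADPH oxidases is turned into hydrogen peroxide by superoxide dismutases, and the peroxide is then removed by catalase, glutathione peroxidases and peroxiredoxins, which draw on glutathione and thioredoxin. NRF2 binds antioxidant response elements and drives part of the set, such as Hmox1, Nqo1, Gclc and Txnrd1. In the kidney the tubules carry a heavy load of mitochondria and of filtered metals, and the proximal tubule (PT) secretes the glutathione peroxidase of plasma.

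Cells were called from the raw barcodes and clustered, and clusters were named by marker genes, so every cell class named below means cells like that class by its markers. A total of 40495 cells was kept. The control libraries gave 1858 to 2493 cells each, the UIR libraries 4005 to 7442 and the UUO libraries 3787 to 5265, out of 91920461 to 110914244 UMIs in the control, 82522753 to 117043590 in the UIR and 49503312 to 60918546 in the UUO libraries. The median cell held 3342 to 5173, 3030 to 4373 and 3706 to 4384 UMIs. Of the called barcodes, 56.9 to 78.7% in the control, 23.5 to 36.9% in the UIR and 3.13 to 7.66% in the UUO libraries had over 30% mitochondrial UMIs and were left out, so the controls lost far more barcodes to that limit. A barcode was seen in more than 1 library for 421 cells (1.04%). Of the kept cells, 9.11% stayed without a name. The labels call 1 control library Control, 2 Normal and 2 Additional Normal. They give no batch for any library. In each group 1 library carries no number in its label, so this split is crossed with injury and could have been fitted. Whether it marks a batch is not stated. The UIR and UUO libraries without a number deviated together in 11 of 11 classes. The control library without a number, replicate 1, lost 56.9% of its called barcodes to the mitochondrial limit, the other controls 75.8 to 78.7%. No fit against control had the missing number as a term, so the part of batch was not tested. The study's methods name as many mice per group as there are libraries, but the labels do not tie a library to a mouse, so p-values measure the spread between libraries.

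Mt1 (ENSMUSG00000031765) and Mt2 lie side by side on the plus strand of chromosome 8 in GRCm38, Mt2 at chr8:94172664-94173568 and Mt1 at chr8:94179082-94180327, with 5513 bases between them. The antisense gene Gm45774 overlaps Mt2. Hmox1 (chr8:75093621-75100589, plus strand) and Nqo1 (chr8:107388225-107403206, minus strand) are on the same chromosome. Gpx3 lies at chr11:54902453-54910377, Gclc at chr9:77754535-77794485, Txnrd1 at chr10:82833951-82897712, Cat at chr2:103453849-103485160, Sod1 at chr16:90220754-90226329 and Sod2 at chr17:13006846-13040063. Eid3 shares its strand with Txnrd1, which it overlaps, and Scaf4 overlaps Sod1 on the other strand.

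The starts of both metallothionein genes are printed here because, of the members with a promoter window, these alone hold the metal response element, and because both genes rose in stroma in both injuries and in macrophages in UUO. RefSeq promoters of GRCm38.p6, 250 bases before to 50 bases after the transcription start, were at hand for 8 of the 10 members. They are printed 5' to 3' on the plus strand, with each match to the metal response element (TGCACNC or TGCGCNC, either strand) in capitals. The Mt1 window is chr8:94178839-94179138 and the Mt2 window chr8:94172368-94172667.
Mt1: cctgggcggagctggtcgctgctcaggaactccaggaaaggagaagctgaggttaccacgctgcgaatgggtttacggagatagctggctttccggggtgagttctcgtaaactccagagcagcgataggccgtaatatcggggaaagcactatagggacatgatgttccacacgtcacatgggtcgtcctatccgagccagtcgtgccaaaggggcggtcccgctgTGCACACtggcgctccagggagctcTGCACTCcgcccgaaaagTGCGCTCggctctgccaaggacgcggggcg
Mt2: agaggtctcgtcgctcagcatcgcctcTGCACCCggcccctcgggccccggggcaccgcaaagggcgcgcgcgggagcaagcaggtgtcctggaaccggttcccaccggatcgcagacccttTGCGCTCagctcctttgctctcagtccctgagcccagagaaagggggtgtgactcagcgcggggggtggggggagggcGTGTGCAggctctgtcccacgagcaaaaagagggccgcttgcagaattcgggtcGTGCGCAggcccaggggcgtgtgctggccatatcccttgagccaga
Mt1 has 3 matches and Mt2 has 4, the other 6 genes none. Over 32851 promoter windows of the same length, 25.7% had at least 1 match and 1.97% had 3 or more. The antioxidant response element (TGACNNNGC, either strand) matched once in Mt2, once in Sod1 and once in 1 of the 3 windows of Txnrd1, and in 12.4% of all windows. A match is a match of letters only.

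Levels are given as UMI counts per 1000000 UMIs (CPM) of the summed cells of a class in a library, here called a pool, as mean ± SD over libraries. Pools needed at least 20 cells. Differences are log2 fold changes with their standard error (SE) from edgeR's quasi-likelihood test, and a gene was called at a Benjamini-Hochberg adjusted p under 0.05 over all genes tested in that class. Of 100 member and class pairs in the 10 classes that had pools in all groups, 95 were tested against control. In UIR 8 were called higher and 18 lower, 27.4% against 16.7% of all gene and class pairs (9.16% higher, 7.58% lower). In UUO 13 were called higher and 27 lower, 42.1% against 21.7% (11.5% higher, 10.1% lower). The median log2 fold change of the pairs was -0.16 in UIR and -0.20 in UUO, beside 0.03 and 0.036 over all pairs. Where libraries were scaled to their total UMIs in place of edgeR's TMM factors, the split changed from 8 higher and 18 lower to 14 and 11 in UIR, and from 13 and 27 to 17 and 17 in UUO. That scaling moved the median of all genes, for UIR and UUO, up by 0.242 and 0.251 in the loop of Henle, by 0.392 and 0.446 in the distal tubule, by 0.342 and 0.375 in intercalated cells and by 0.131 and 0.194 in principal cells, and by 0.115 in PT cells in UUO. Of the called members 1 changed sign with it, Sod1 in the distal tubule in UIR.

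**Figure D1:**
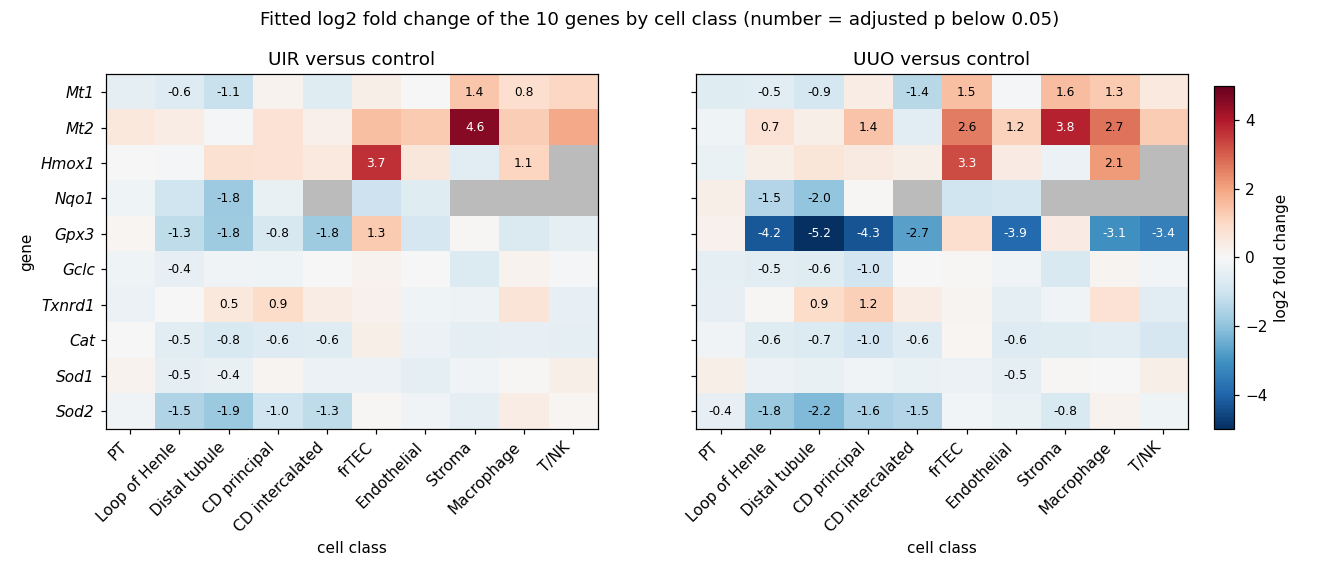
Log2 fold change of each member (rows) in each cell class (columns), for UIR against control on the left and UUO against control on the right. Colour is the fold change, a printed number marks an adjusted p under 0.05, and grey marks pairs that were not tested. Mt1 and Mt2 are high in stroma in both injuries and in frTECs and macrophages in UUO, Sod2 is low from the loop of Henle to the intercalated cells, and Gpx3 is low in UUO in 7 of the 10 classes.

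Member calls were most frequent in the distal tubule and loop of Henle, which also had the largest share of all genes called. Of 10 members 6 fell in the loop of Henle in UIR, where 31.8% of all genes were called, and in UUO 1 rose and 6 fell, against 37.3%. The distal tubule had 1 member higher and 6 lower in UIR (37.6% of all genes called) and the same counts in UUO (42.9%). In principal cells of the collecting duct 1 rose and 3 fell in UIR (17.7%), and 2 rose and 4 fell in UUO (35.3%). In intercalated cells 3 of 9 members fell in UIR (20.3%) and 4 in UUO (26.7%). Failed repair tubular epithelial cells (frTECs), named here by Slc14a2, Cp, Vcam1, Cryab, Cdh6 and Npnt, had 2 members higher in UIR (15% of all genes called) and 3 higher in UUO (16.3%), over only 3 control pools of 22 to 31 cells. In macrophages 2 of the 9 members tested rose in UIR (8.12%), and in UUO 3 rose and 1 fell (12.5%).

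The remaining classes with pools in all groups had 0 to 4 members called. Stroma had 2 of 9 members higher in UIR (14.8% of all genes called), and 2 higher and 1 lower in UUO (19%). Endothelial cells had 0 of 10 called by edgeR in UIR (2.01%), with 3 at an unadjusted p under 0.05 and 1 called by DESeq2, and 1 higher and 3 lower in UUO (12.7%). T and NK cells had 0 of 8 called by edgeR in UIR (0.695%), with 2 at an unadjusted p under 0.05 and 0 called by DESeq2, and 1 lower in UUO (2.37%). In PT cells edgeR called 0 of 10 members in UIR, where 19.1% of all genes were called, with 1 at an unadjusted p under 0.05 and 0 by DESeq2. In UUO 1 of 10 fell in PT cells, where 13% of all genes were called.

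Mt1 had its highest level in the loop of Henle in each of the 3 groups, with the distal tubule next, and it fell in both classes. Control loop of Henle pools had 2120 to 3461 CPM with a median of 2528. The UIR pools had 2643, 1433 and 1708 CPM and the UUO pools 2498, 1953 and 1892 CPM, so that both injured groups overlapped the controls. The log2 fold change was -0.65 (SE 0.19, adjusted p = 0.0124) in UIR and -0.53 (SE 0.19, adjusted p = 0.0341) in UUO, and both calls were lost with scaling to total UMIs (-0.42 and -0.28). The UIR call was also lost without UIR replicate 1 (-0.48) or UIR replicate 2 (-0.56), and the UUO call under 9 of 25 alternatives, among them leaving out control replicate 1 (-0.40), 2 (-0.54) or 4 (-0.51), or UUO replicate 1 (-0.47) or 2 (-0.44).

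In the distal tubule, where calcium and sodium uptake are tuned, Mt1 was 2175, 1038, 2243, 1417 and 1723 CPM in the controls, 1489, 693 and 963 CPM in UIR and 1454, 1105 and 1289 CPM in UUO. It fell by 1.10 (SE 0.22, adjusted p = 0.000222) and by 0.86 on the log2 scale (SE 0.22, adjusted p = 0.00215), although both injured groups overlapped the controls. The UUO call was lost with scaling to total UMIs (-0.42) and where cells were named one by one (-0.54). In intercalated cells, which move acid and base, Mt1 fell in UUO from 791 ± 401 to 387 ± 162 CPM (-1.39, SE 0.36, adjusted p = 0.00588), with overlapping groups. The call was lost where each cell was named by its own markers (-1.03, adjusted p = 0.0591). It was also lost within the cluster with most control intercalated cells (-0.944, adjusted p = 0.285).

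Mt2, the neighbour of Mt1 with the same metal-binding role, was not called lower against control in any class taken whole. In the loop of Henle it was 647, 569, 511, 707 and 505 CPM in the controls, 1103, 734 and 829 CPM in UIR and 1107, 1146 and 1204 CPM in UUO. Every injured pool stood above every control pool. Mt2 rose in UUO (log2 fold change 0.72, SE 0.15, adjusted p = 0.00059), and in UIR the difference of 0.36 did not pass (adjusted p = 0.0767). Distal tubule Mt2 was 358 ± 128, 441 ± 138 and 608 ± 33.8 CPM in control, UIR and UUO, with no call.

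In the class named after the principal cells of the collecting duct, the cells of aquaporin-2 and water reabsorption, Mt2 rose in UUO. Mt2 was 140, 71.3, 121, 57.2 and 64.5 CPM in the controls, 261, 114 and 116 CPM in UIR and 254, 203 and 391 CPM in UUO. Only the UUO pools all stood above the controls. The log2 fold change was 1.42 in UUO (SE 0.28, adjusted p = 0.000376), called under each of the 25 alternatives that gave a value, and 0.72 in UIR (adjusted p = 0.0946). Mt1 was 838, 389, 567, 336 and 287 CPM in the controls, 962, 462 and 359 CPM in UIR and 768, 521 and 870 CPM in UUO, and the overlapping groups gave no call (0.17, adjusted p = 0.78, and 0.37, adjusted p = 0.364).

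Control and UUO principal cells lay in different clusters, since one led by Spink8, Plet1 and Sprr2f held 0.3% of the control, 36.59% of the UIR and 93.36% of the UUO cells. Principal cell markers were absent from its leading genes. The mean log level of these markers, each as a share of its highest cluster, was 0.362 there, beside 0.249 for distal tubule markers. It was 0.836 and 0.928 in clusters led by Aqp2. The UUO values of every member in this class thus came mostly from the Spink8 cluster, with weaker principal cell markers. No test of UUO against control within a cluster was therefore possible, and in this cluster Mt2 was 197 CPM in UIR and 302 CPM in UUO, without a call (0.55, adjusted p = 0.999). The values of the class also depended on 1 cluster with markers of both principal cells and the distal tubule. It was led by S100g, Klk1, Hsd11b2 and Calb1, and held 117 control, 74 UIR and 2 UUO cells, or 35.03, 20.67 and 0.88% of the principal cells. Within it Mt1 was 869 CPM in control and 1068 CPM in UIR, and Mt2 176 and 199 CPM, without a call. Without it, an alternative chosen after seeing the data, Mt1 was 232, 435 and 720 CPM in control, UIR and UUO, and rose in UUO (1.58, SE 0.41, adjusted p = 0.00454) but not in UIR (0.87, adjusted p = 0.172). Mt2 was then 36.3, 151 and 286 CPM and rose in both, by 1.95 in UIR (SE 0.46, adjusted p = 0.00322) and 2.85 in UUO (SE 0.44, adjusted p = 1.89e-05) on the log2 scale.

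Intercalated cells changed the other way under the same alternative. Their mixed cluster, led by Aqp6, Clcn5 and Hsd11b2, held 14 control, 190 UIR and 60 UUO cells. Without it Mt1 was 850, 790 and 227.5 CPM and Mt2 142, 190 and 34.1 CPM in control, UIR and UUO, so that Mt2 fell with Mt1 in UUO. Against control the log2 fold changes were -2.24 for Mt1 (SE 0.33, adjusted p = 8.83e-06) and -2.44 for Mt2 (SE 0.35, adjusted p = 7.28e-06). Both were also lower in UUO than in UIR, with log2 differences of -1.93 (adjusted p = 0.00125) and -2.67 (adjusted p = 3.02e-05).

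Stroma pooled cells named Fibro 1, Fibro 2 and Fibro 3 by their markers, and their mix differed by group. Fibro 1 cells, with Col1a1 and Dcn as markers, numbered 1 to 5 per control library, 71 to 210 in UIR and 144 to 184 in UUO. Fibro 3 cells, with Pdgfrb and Rgs5 as markers, numbered 19 to 39, 38 to 61 and 58 to 101. In stroma taken whole the metallothioneins rose in both injuries. Mt1 was 390, 152, 210, 186 and 136 CPM in the controls, 490, 738 and 413 CPM in UIR and 666, 783 and 437 CPM in UUO. Mt2 was 15.2 to 26.1 CPM in the controls with a median of 17.9, 415, 636 and 311 CPM in UIR and 235, 412 and 207 CPM in UUO. All injured pools stood above the controls for both genes. The log2 fold changes were 1.41 (SE 0.28, adjusted p = 0.00147) and 1.56 (SE 0.28, adjusted p = 0.000441) for Mt1, and 4.57 (SE 0.35, adjusted p = 4.96e-08) and 3.85 (SE 0.36, adjusted p = 3.54e-07) for Mt2. With cells limited to 15% mitochondrial UMIs the Mt1 calls were lost (0.64, adjusted p = 0.323, and 0.69, adjusted p = 0.27). The mitochondrial share of the stromal pools was 11.6 to 18.1% in control, 8.33 to 10.2% in UIR and 5.88 to 6.87% in UUO. The summed macrophage markers in them were 0 to 7.15, 51.8 to 188.5 and 84.3 to 149.7 CPM, and the part of either in these differences was not tested.

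Macrophages, which take up dying cells and recycle iron, also had more Mt1 in both injuries. Mt1 was 334, 226, 178, 206 and 230 CPM in the controls, 550, 389 and 354 CPM in UIR and 567, 557 and 736 CPM in UUO, with no overlap. The log2 fold changes were 0.84 (SE 0.16, adjusted p = 0.00332) and 1.30 (SE 0.16, adjusted p = 1.82e-05), and they were called under each of 28 alternatives. Mt2 rose in UUO (4.38 to 18.9 CPM in control, 34.5, 76.7 and 156 CPM in UUO, log2 fold change 2.70, SE 0.57, adjusted p = 0.00347). The call was lost with barcodes over the UMI cutoff alone (2.30) and without the Additional Normal controls (2.77, adjusted p = 0.051). It was also lost within the clusters with most control (1.145, adjusted p = 0.134) and most injured macrophages (1.147, adjusted p = 0.451). In UIR Mt2 was 32.1 ± 11.2 CPM, without a call. Free RNA, measured in the empty droplets, held 223, 354 and 430 CPM of Mt1 and 36.0, 102 and 151 CPM of Mt2 in control, UIR and UUO, so its metallothionein content moved the same way. After subtraction of each pool's free RNA, the calls for Mt1 and Mt2 in stroma and macrophages against control, and for Mt2 in principal cells, were kept.

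Metallothioneins were also called in frTECs and endothelial cells. In frTECs Mt1 was 92.9 ± 56.8, 121 ± 28 and 285 ± 84.9 CPM and Mt2 12.3 ± 5.85, 37.7 ± 12 and 80.3 ± 6.71 CPM in control (n = 3), UIR and UUO. Both rose in UUO, by 1.49 (SE 0.34, adjusted p = 0.00676) and 2.57 (SE 0.46, adjusted p = 0.00103) on the log2 scale. Both calls were kept under each of 24 alternatives, but none of these tested UUO against control within a cluster. The cluster led by Fst and Aqp1 held 60.58% of control and 3.4% of UUO frTECs, and the one led by Ubd and C3 2.88 and 41.93%. Subtraction of free RNA raised the log2 fold changes to 2.74 (adjusted p = 0.00887) and 4.61 (adjusted p = 0.00313), where the estimated share of free RNA was 56.3% in the pool of control replicate 5, 12.2 and 14.0% in the other control pools and 4.30 to 12.5% in UUO. In endothelial cells Mt2 rose in UUO from 4.57 ± 2.17 to 10.8 ± 1.79 CPM (1.17, adjusted p = 0.0278), which was lost under 8 of 24 alternatives, among them subtraction of free RNA (adjusted p = 0.274) and leaving out control replicate 1 (1.01) or 5 (0.97) or UUO replicate 3 (1.03). PT cells had 54.2 ± 15.8, 41.1 ± 11.8 and 38.0 ± 16.9 CPM of Mt1, with no call. After subtraction of free RNA, PT Mt1 was 37.2, 4.15 and 3.72 CPM and was called lower in UIR (-3.29, adjusted p = 0.000709). UUO PT cells were few, 56 to 97 per library.

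**Figure D2:**
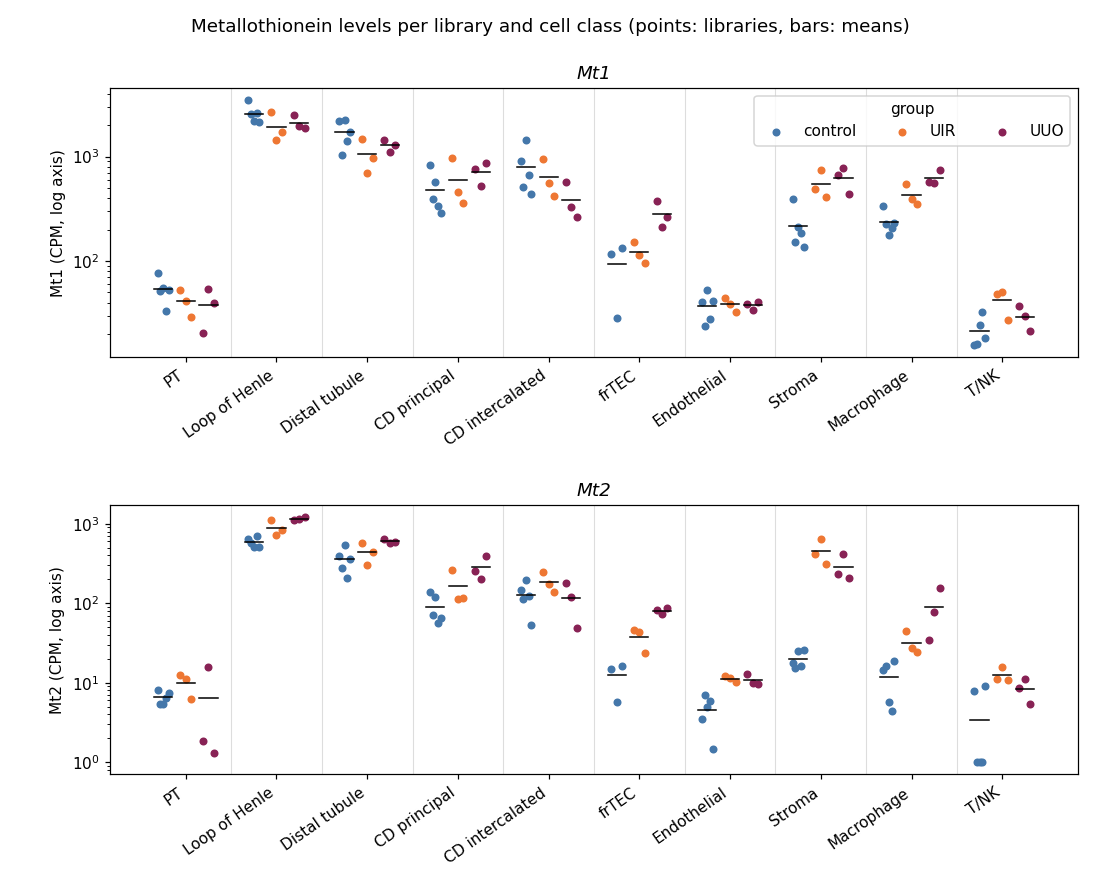
Mt1 and Mt2 levels in CPM on a log axis by cell class, each dot a library's pool, coloured by group, with a line at the group mean. Values under 1 CPM are drawn at 1. In stroma and macrophages all injured dots of both genes lie above the control dots, and in the loop of Henle this holds for Mt2 and not for Mt1.

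The injured classes were not made of the same clusters as the control classes, and the member levels differed between those clusters. In the loop of Henle 99.2% of control cells but 9.61% of UIR and 1.75% of UUO cells lay in a cluster led by Egf, Slc12a1 and Umod. All distal tubule cells of the controls (100%) and 7.87 and 4.97% of UIR and UUO cells lay in 1 cluster, and in stroma 70.24, 9.2 and 20.2%. The clusters were built without the members, the other pathway genes and the marker genes, and values within them are descriptions of cells alike by their remaining genes. Within the control-rich loop of Henle cluster Mt1 was 2593 CPM in control and 1810 CPM in UIR, still called lower (-0.68, adjusted p = 0.0174). Mt2 was 587 and 485 CPM there, without a call (-0.45, adjusted p = 0.0688), so that the higher Mt2 of the whole UIR class was not seen within this cluster.

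In stroma the control-rich cluster, led by Sfrp2, Ptn and Itga8, had 271 CPM of Mt1 in control, 270.5 CPM in the only UIR pool and 198.5 CPM in UUO (-0.51, adjusted p = 0.176), and 32.1, 32.8 and 22 CPM of Mt2, whose counts there were too low to be tested. A stromal cluster with Mgp and Col3a1 among its leading genes held 0.6% of control, 22.21% of UIR and 12.56% of UUO stroma, and had 859 and 1288 CPM of Mt1 and 717 and 633 CPM of Mt2 in UIR and UUO. The rise of both genes over the whole stroma was thus not seen in the control-rich cluster. In macrophages it was seen within clusters for Mt1. The cluster with most control macrophages, led by Cx3cr1 and P2ry6, had 233, 416 and 452 CPM of Mt1 (0.79, adjusted p = 0.00702, and 0.84, adjusted p = 0.00219) and 10.6, 31.0 and 28 CPM of Mt2, without a call. A macrophage cluster led by Mmp12, Retnla and Lyz1, with 0 control, 169 UIR and 323 UUO cells, had 462 and 1323 CPM of Mt1 and 32.2 and 366 CPM of Mt2.

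Intercalated cells and frTECs also held clusters with different levels. Within the control-rich intercalated cluster Mt1 was 908, 1547 and 545 CPM and Mt2 163, 416 and 64.5 CPM in control, UIR and UUO, and Mt2 was called higher in UIR (1.21, adjusted p = 0.0136). In an intercalated cluster led by Aqp6, Clcn5 and Kit, with 19.33, 30.19 and 61.35% of the intercalated cells, Mt1 was lower in UUO (-1.74, adjusted p = 0.0123). In the frTEC cluster led by Ubd, C3 and Vcam1 Mt1 went from 133 CPM in UIR to 409 CPM in UUO (1.60, adjusted p = 0.0189), and Mt2 from 30.6 to 101 CPM (1.72, adjusted p = 0.0121).

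The number of Mt2 UMIs for every 100 Mt1 UMIs was compared because the pair had moved apart; this ratio was chosen after the values were seen, and since both are counts of 3' ends it compares libraries and not the levels of the genes. Loop of Henle pools had 23.1 ± 3.09 in control, 47.2 ± 4.90 in UIR and 55.5 ± 10.0 in UUO. The distal tubule had 21.0 ± 4.85, 42.8 ± 3.32 and 47.8 ± 4.26, in principal cells 19.2 ± 2.58, 28 ± 3.83 and 39.0 ± 5.97, and in stroma 10.9 ± 5.38, 82.0 ± 5.87 and 45.1 ± 8.92. No injured library overlapped the controls in these 4 classes. In intercalated cells the ratio was 16.5 ± 3.89, 30.2 ± 3.91 and 28.7 ± 9.11, and UUO overlapped the controls. Macrophages had 5.03 ± 2.62, 7.32 ± 0.74 and 13.7 ± 7.57, with overlap in both injuries. Since the ratio was chosen for this difference, no test is given. Within the control-rich loop of Henle cluster the ratio was 22.6 in control and 26.8 in UIR, within the mixed principal cell cluster 20.2 and 18.6, and within the control-rich stromal cluster 11.8, 12.1 and 11.1 in control, UIR and UUO. In other clusters it was less even, at 17.9, 26.9 and 11.8 in the control-rich intercalated cluster, 4.56, 7.45 and 6.20 in that of macrophages, and 11.8 in control and 21.7 in UIR in that of frTECs. The free RNA had ratios of 16.1, 28.9 and 35.1.

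Hmox1 codes for heme oxygenase-1, which breaks down heme into biliverdin, iron and carbon monoxide. In UUO its highest mean levels were in macrophages, neutrophils and monocytes. Macrophages had 25.1, 65.8, 34.5, 26.3 and 34.7 CPM in the controls, 112, 64.9 and 68.1 CPM in UIR and 151, 167 and 201 CPM in UUO. The lowest UIR pool lay just under the highest control pool, and the UUO pools met neither group. The log2 fold change was 1.08 in UIR (SE 0.27, adjusted p = 0.0166) and 2.13 in UUO (SE 0.25, adjusted p = 8.84e-06). The UIR call was lost without control replicate 1 (0.95, adjusted p = 0.0538), without the 2 Additional Normal controls (0.99, adjusted p = 0.143) and with barcodes over the UMI cutoff alone (1.21, adjusted p = 0.156).

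The macrophages came mostly from a pair of clusters that differed in depth. A cluster of few UMIs per cell, led by Ccl8 and Aif1, held 26.54% of control, 62.04% of UIR and 61.4% of UUO macrophages. In it Hmox1 was 86.3, 61.0 and 186 CPM, with control libraries between 0 and 258 CPM, a UIR difference of -0.05 (adjusted p = 0.968) and a UUO difference of 1.42 (adjusted p = 0.0282). In the deeper cluster, with 73.18, 32.18 and 30.14% of the macrophages, Hmox1 was 32.4, 88.8 and 147.5 CPM, higher by 1.36 in UIR (adjusted p = 0.0116) and 2.07 in UUO (adjusted p = 4.6e-05) on the log2 scale. Whether the UIR difference itself differed between the clusters was not tested. Free RNA held 6.60 to 20.9 CPM of Hmox1 in control, 13.02 to 16.75 CPM in UIR and 23.2 to 32.8 CPM in UUO, so the highest control value came near the lowest control macrophage pool of 25.1 CPM.

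**Figure D3:**
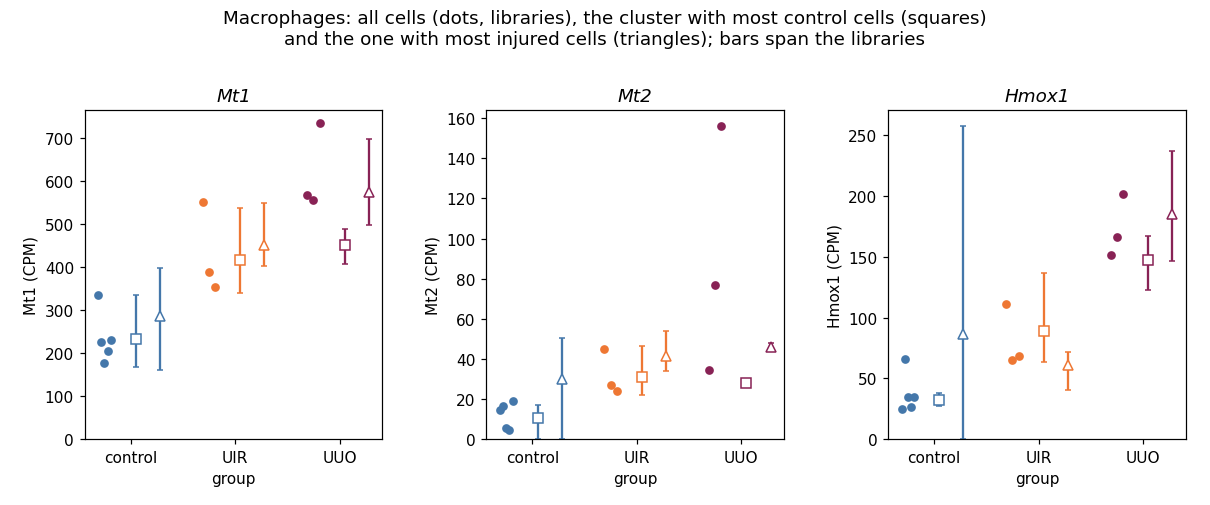
Mt1, Mt2 and Hmox1 in macrophages in CPM by group. Dots are libraries, squares are the mean of the cluster with most control macrophages and triangles that of the cluster with most injured ones, with bars from the lowest to the highest library. The library means of Hmox1 are 37.3, 81.6 and 173 CPM, and the triangles of control and UIR lie at 86.3 and 61.0 CPM.

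Of the tubular classes PT cells had the most Hmox1, 26.9 ± 2.67, 27.9 ± 5.03 and 22.6 ± 3.54 CPM, with overlapping groups, and the control PT pools overlapped those of control macrophages. In principal cells it was 9.22 ± 2.19 CPM in control, 16.2 ± 3.13 CPM in UIR and 14.6 ± 6.66 CPM in UUO without a call, and without the mixed cluster it was called in UIR (1.06, adjusted p = 0.049). The summed level of the macrophage markers in principal cells was 1.02 to 15.6 CPM in control, 32.6 to 52.0 CPM in UIR and 57.9 to 77.5 CPM in UUO, beside 15780 to 19570 CPM in macrophages, and its part in the Hmox1 difference was not tested. The control frTECs had 1 Hmox1 UMI in all, against 216 UMIs in UIR and 96 in UUO, a ratio of 12.7 (exact interval 2.26 to 504) and 10.0 (1.75 to 399) per UMI sequenced, which covers counting error only. Both were called (adjusted p = 0.0141 and 0.0361), and both calls were lost without control replicate 1 (3.05 and 2.66). The UUO call was lost under 9 of 24 alternatives in all, with control replicate 3 or 5 or UUO replicate 1 or 3 left out among them.

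Nqo1, a quinone reductase and a standard target of NRF2, had its highest control level in the distal tubule and fell there. It was 46.4, 37.8, 44.0, 44.6 and 49.0 CPM in the controls, 20, 12.3 and 16.0 CPM in UIR and 19.7, 14.6 and 12.2 CPM in UUO. The highest injured pool had 20 CPM and the lowest control pool 37.8 CPM. The log2 fold changes were -1.83 (SE 0.22, adjusted p = 9.6e-08) and -1.99 (SE 0.24, adjusted p = 7.23e-08), and they were called under each of 25 alternatives. Of the injured distal tubule cells, 92.13% in UIR and 95.03% in UUO lay in a cluster led by Tmem52b, Clu and Slc12a3 that held 0 control cells and had Hsd11b2, a marker of principal cells, among its leading genes. Without that cluster too few injured distal tubule pools were left, so the alternative without mixed clusters gave no value for any member in this class. The only UIR pool in the control-rich distal tubule cluster had 64.7 CPM against 44.4 CPM in control, too few pools for a test.

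Elsewhere Nqo1 was called once. It fell in the loop of Henle in UUO from 9.54 ± 4.25 to 4 ± 1.23 CPM (-1.47, SE 0.47, adjusted p = 0.0157), with overlapping groups, a call lost without control replicate 5 (-1.20, adjusted p = 0.0888). PT cells had 33.7 ± 3.09, 29.8 ± 8.23 and 45.3 ± 2.33 CPM. The UUO pools of 43.2 to 47.8 CPM all stood above the controls of 29.9 to 37.6 CPM, but the difference was not called. In macrophages 0 Nqo1 UMIs were seen in control, 19 in UIR and 13 in UUO, too few for a fold change.

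Gclc, the catalytic subunit of the enzyme that limits glutathione synthesis, fell in 3 distal nephron classes in UUO. In principal cells it was 200, 180, 208, 137 and 205 CPM in the controls, 176, 174 and 168 CPM in UIR and 105, 116 and 102 CPM in UUO. Every UUO pool lay under every control and UIR pool. The difference was -0.97 from control (SE 0.14, adjusted p = 1.03e-05) and -0.74 from UIR (SE 0.15, adjusted p = 0.0039), and both calls were lost where cells were named one by one (-0.23 and -0.42). In the loop of Henle Gclc fell from 94.9 ± 16.4 to 82.9 ± 2.88 CPM in UIR (-0.40, adjusted p = 0.0412), a call that 13 of 26 alternatives ended, and to 75.5 ± 10.8 CPM in UUO (-0.54, adjusted p = 0.00576). Distal tubule Gclc fell in UUO (-0.62, adjusted p = 0.00341), from 237 ± 43.7 to 209 ± 58.9 CPM. Scaling to total UMIs ended these UUO calls (-0.29 and -0.18). Intercalated cells had the most Gclc, 248 ± 25.9, 308 ± 30.2 and 327 ± 10.5 CPM, with every injured pool above the controls and no call.

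Txnrd1, the cytosolic thioredoxin reductase, rose in the distal tubule and in principal cells. In principal cells it was 111, 52.7, 91.4, 104 and 94.5 CPM in the controls, 161, 166 and 252 CPM in UIR and 184, 271 and 268 CPM in UUO. Distal tubule pools had 82.7, 73.0, 88.0, 72.5 and 59.2 CPM in the controls, 114, 145 and 175 CPM in UIR and 152, 193 and 233 CPM in UUO. Injured and control pools did not overlap in either class. The log2 fold changes were 0.92 (SE 0.18, adjusted p = 0.000891) and 1.18 (SE 0.18, adjusted p = 2.02e-05) in principal cells and 0.54 (SE 0.17, adjusted p = 0.0119) and 0.92 (SE 0.17, adjusted p = 5.29e-05) in the distal tubule. The distal tubule call in UIR was lost where cells were named one by one (0.09, adjusted p = 0.744) and without control replicate 5 (0.45) or UIR replicate 2 (0.41). Within the mixed principal cell cluster the UIR difference was -0.10 (adjusted p = 0.882), and without that cluster the rise was 1.26 and 1.42. PT cells had 113 ± 13.3, 94.9 ± 13.9 and 90.6 ± 19.4 CPM, with no call.

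Sod2, the manganese superoxide dismutase of the mitochondrial matrix, fell in all 4 distal nephron classes in both injuries. Loop of Henle pools had 460, 374, 493, 369 and 538 CPM in the controls, 201, 180 and 180 CPM in UIR and 171, 147 and 127 CPM in UUO. Distal tubule pools had 507, 441, 494, 580 and 682 CPM in the controls, 214, 201 and 164 CPM in UIR and 196, 146 and 140 CPM in UUO. The highest injured pool lay under the lowest control pool in both. The log2 fold changes were -1.50 (SE 0.15, adjusted p = 4.41e-08) and -1.84 (SE 0.16, adjusted p = 1.48e-09) in the loop of Henle, and -1.87 (SE 0.16, adjusted p = 3.75e-10) and -2.20 (SE 0.17, adjusted p = 1.98e-11) in the distal tubule. Intercalated cells went from 502 ± 61.6 to 265 ± 32.6 and 234 ± 32.1 CPM (-1.26 and -1.47), and principal cells from 333 ± 15.3 to 182 ± 20.7 and 123 ± 20.4 CPM (-1.001 and -1.63), all called and without overlap.

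The mitochondrial share of UMIs moved with Sod2 in these classes. It was 19.9 to 24.0% of the loop of Henle pools in control, 9.50 to 11.2% in UIR and 7.98 to 8.89% in UUO, 17.1 to 23.9, 11.3 to 14.0 and 10.5 to 11.6% in the distal tubule, 19.1 to 21.3, 12.9 to 16.3 and 9.91 to 11.8% in principal cells, and 21.96 to 24.93, 12.4 to 14.2 and 10.5 to 10.9% in intercalated cells. With the mitochondrial genes left out of the totals these 8 Sod2 calls were kept, but so were 77 of all 78 member calls. The part of the mitochondrial share in the Sod2 difference was not tested. In PT cells the mitochondrial share was 18.7 to 21.6, 19.3 to 21.2 and 18.3 to 20.5%. There Sod2 was 523 ± 13.3, 480 ± 27.4 and 429 ± 64.8 CPM, and it fell in UUO (-0.40, SE 0.12, adjusted p = 0.0316), a call that 11 of 28 alternatives ended, leaving out UUO replicate 1 (-0.37) or 2 (-0.31) among them. Within the control-rich loop of Henle cluster Sod2 was 450 CPM in control and 307 CPM in UIR, and still called lower (-0.74, adjusted p = 0.00434). Within the mixed principal cell cluster it went from 435 to 224 CPM (-1.03, adjusted p = 9.77e-05). Within the control-rich intercalated cluster the difference was not called (512, 388 and 322 CPM), and within the one led by Aqp6, Clcn5 and Kit it was, at 489, 315 and 253 CPM (-0.86, adjusted p = 0.0102, and -1.27, adjusted p = 0.000117).

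**Figure D4:**
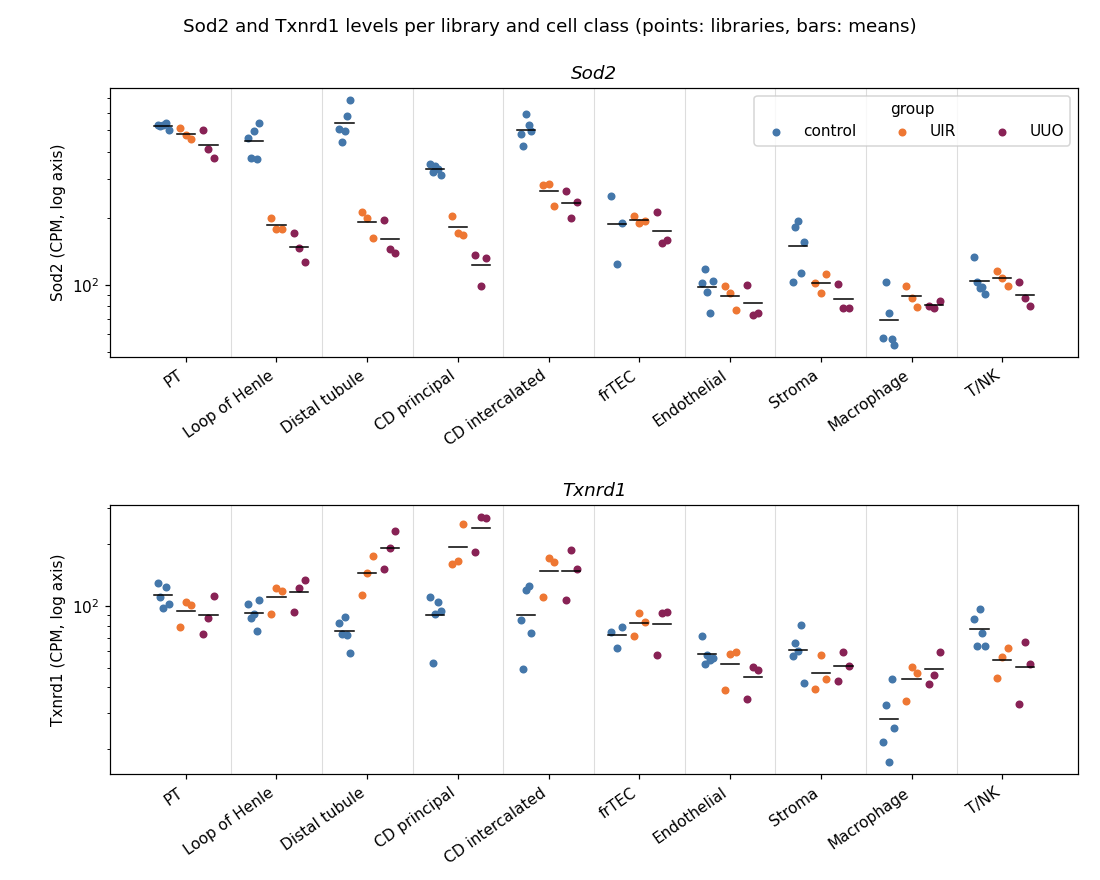
Sod2 and Txnrd1 levels in CPM by cell class, each dot a library's pool, coloured by group, on a log axis, with a line at the group mean. In both of the loop of Henle and distal tubule columns the UIR and UUO dots of Sod2 lie between 127 and 214 CPM and the control dots between 369 and 682 CPM, while the Txnrd1 dots of the injured distal tubule and principal cells lie above the controls.

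Sod1, the copper and zinc superoxide dismutase of the cytosol, was called in endothelial cells, the distal tubule and the loop of Henle. In endothelial cells it was 224 ± 22.1 CPM in control, 170 ± 19.7 CPM in UIR and 174 ± 16.3 CPM in UUO, with every injured pool under the lowest control pool of 209 CPM. It was called lower in UUO (-0.46, SE 0.12, adjusted p = 0.0109) and not in UIR (-0.45, SE 0.12, adjusted p = 0.0532), and the UUO call was lost with scaling to total UMIs (-0.37) and without UUO replicate 2 (-0.40). The call in the loop of Henle in UIR (-0.48, adjusted p = 0.0113) came with 87.5 ± 13.2 CPM in control and 73.8 ± 3.98 CPM in UIR, and was lost with that scaling too (-0.24) and without control replicate 1 (-0.42, adjusted p = 0.0506). Distal tubule Sod1 was 88.9 ± 8.99 CPM in control and 89.6 ± 6.72 CPM in UIR, and its call (-0.39, adjusted p = 0.037) was lost under 14 of 25 alternatives, with 0.01 under scaling to total UMIs. Stromal Sod2 fell in UUO from 150 ± 40.8 to 86.1 ± 13 CPM (-0.76, SE 0.20, adjusted p = 0.0119), a call lost under 5 of 27 alternatives. It was lost without the Normal controls (-0.464, adjusted p = 0.214) and with a mitochondrial limit of 15% (-0.555, adjusted p = 0.308). The same held after subtraction of free RNA (-0.60, adjusted p = 0.0758), without UUO replicate 1 (-0.70, adjusted p = 0.0521) and within the control-rich cluster (-0.911, adjusted p = 0.0726).

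Cat codes for catalase, the peroxisomal enzyme that splits hydrogen peroxide. PT cells had the most, 464 ± 34.8, 472 ± 16.0 and 439 ± 34.1 CPM, and the groups overlapped. It fell in the distal tubule from 82.4 ± 10.0 to 62.5 ± 8.84 CPM in UIR (-0.77, SE 0.15, adjusted p = 0.000179) and 68.3 ± 8.05 CPM in UUO (-0.69, SE 0.16, adjusted p = 0.000728). Both calls were lost with a mitochondrial limit of 15% (-0.608, adjusted p = 0.0944, and -0.646, adjusted p = 0.0697). In principal cells Cat fell from 92.2 ± 14.3 to 65.5 ± 4.89 CPM (-0.64, SE 0.14, adjusted p = 0.00293) and 55.1 ± 8.53 CPM (-0.96, SE 0.15, adjusted p = 2.96e-05), without overlap. Within their mixed cluster the UIR call was lost (-0.451, adjusted p = 0.316). Intercalated cells went from 83.2 ± 6.60 to 69.3 ± 2.34 and 68.8 ± 2.23 CPM (-0.60 and -0.64, both called), but both calls, and that of the distal tubule in UUO, were lost with scaling to total UMIs (-0.26, -0.27 and -0.24). Both intercalated calls were also lost within the control-rich intercalated cluster (-0.778, adjusted p = 0.0756, and -0.488, adjusted p = 0.704). The same held within the cluster with most injured intercalated cells (-0.45, adjusted p = 0.428, and -0.569, adjusted p = 0.206). The calls in the loop of Henle (-0.52 in UIR, -0.59 in UUO) and in endothelial cells in UUO (-0.63) were lost after subtraction of free RNA (-0.30, -0.27 and -0.27), and the first of them under 14 of 26 alternatives in all.

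Gpx3 was the only member besides Hmox1 that rose in frTECs in UIR. It was 580, 1917 and 656 CPM in the 3 control pools, 2478, 2465 and 2447 CPM in UIR and 2081, 1849 and 1607 CPM in UUO. All UIR pools lay above the controls, and 1 control pool lay within the range of UUO. The log2 fold change in UIR was 1.29 (SE 0.32, adjusted p = 0.0109). It was lost where cells were named one by one (0.18), after subtraction of free RNA (2.13, adjusted p = 0.261) and without control replicate 1 (1.01) or 5 (1.07). The summed level of the PT markers moved with it in the frTEC pools, at 1516 to 1906 CPM in control, 2632 to 4517 CPM in UIR and 1816 to 5610 CPM in UUO, and its part in the Gpx3 difference was not tested. The frTEC class held different clusters by group. The cluster led by Ubd, C3 and Vcam1 held 2.88% of control, 48.54% of UIR and 41.93% of UUO frTECs, with 3982 and 3213 CPM of Gpx3 in UIR and UUO, and one led by Fst and Aqp1 60.58, 8.03 and 3.4%. Within the second cluster Gpx3 was 386 CPM in control and 264 CPM in UIR, without a call (-0.58, adjusted p = 0.806). Cat in frTECs was 88.3 ± 9.20, 108 ± 1.77 and 97.5 ± 17.9 CPM, without a call, and after subtraction of free RNA it was called higher in both injuries (1.96 and 2.03).

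Gpx3, the glutathione peroxidase secreted by PT cells into plasma, was by far highest in PT cells, 8353 ± 668, 9254 ± 1351 and 10440 ± 2765 CPM in control, UIR and UUO, with no call. It was also the member with the most calls, and most of these were in classes with far lower levels than PT cells. In the distal tubule it was 487, 421, 540, 480 and 489 CPM in the controls, 208, 198 and 150 CPM in UIR and 12.8, 10.8 and 30.8 CPM in UUO, with no overlap between the 3 groups. The log2 fold changes were -1.77 (SE 0.17, adjusted p = 3.93e-09) and -5.19 (SE 0.24, adjusted p = 1.35e-15). In UUO it was lower than in control in the loop of Henle (-4.23), principal cells (-4.31), intercalated cells (-2.72), endothelial cells (-3.87), macrophages (-3.08) and T and NK cells (-3.43), and in UIR in the loop of Henle (-1.27), intercalated cells (-1.78) and principal cells (-0.80), all called. The call in principal cells in UIR was lost under 10 of 26 alternatives, among them leaving out control replicate 1 (-0.65), 2 (-0.83) or 5 (-0.69) or UIR replicate 2 (-0.49) or 3 (-0.89).

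The free RNA moved with Gpx3. Empty droplets held 4928 CPM of Gpx3 on average in control (3057 to 11110 CPM over libraries), 3959 CPM in UIR (2818 to 5881 CPM) and 1094 CPM in UUO (541 to 1565 CPM). T and NK cells, which should lack this transcript, had 568 ± 188, 388 ± 127 and 52.5 ± 37.6 CPM. The estimated share of free RNA differed by class, with control medians of 10.0% in T and NK cells, 14.6% in macrophages, 7.16% in the distal tubule and 5.11% in principal cells, so the level in 1 class is no measure of the background in another. After subtraction of free RNA Gpx3 was 127, 9.78 and 0 CPM in T and NK cells, 70.5, 36.9 and 3.49 CPM in the loop of Henle, 242, 49.6 and 4.08 CPM in the distal tubule, 540, 135 and 136 CPM in intercalated cells and 209, 56.1 and 16.1 CPM in macrophages. All 7 UUO calls against control were kept. The call in T and NK cells, which should lack the transcript, was among them, so a kept call is no sign that the free RNA was fully removed. The UIR calls in the loop of Henle (-0.93, adjusted p = 0.172) and frTECs were lost. The part of the free RNA that this subtraction may have missed was not tested.

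Stromal Gpx3 was not called in either injury. It was 572, 223, 500, 485 and 460 CPM in the controls, 497, 505 and 332 CPM in UIR and 619, 459 and 664 CPM in UUO, with overlapping groups. After subtraction it was 102, 171 and 556 CPM, and it was then called higher in UUO than in control (2.66, adjusted p = 0.00014) and than in UIR (1.69, adjusted p = 0.0383). Within the control-rich stromal cluster Gpx3 was lower in UUO by 3.11 on the log2 scale (485 to 55.7 CPM, adjusted p = 9.09e-09). Over all UUO cells of a cluster, the one led by Dcn, Col1a1 and Igfbp6 had 1542 CPM of Gpx3 and a shallow one led by Mgp, Bgn and Smoc2 931.7 CPM, against 59.07 CPM in the control-rich cluster.

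**Figure D5:**
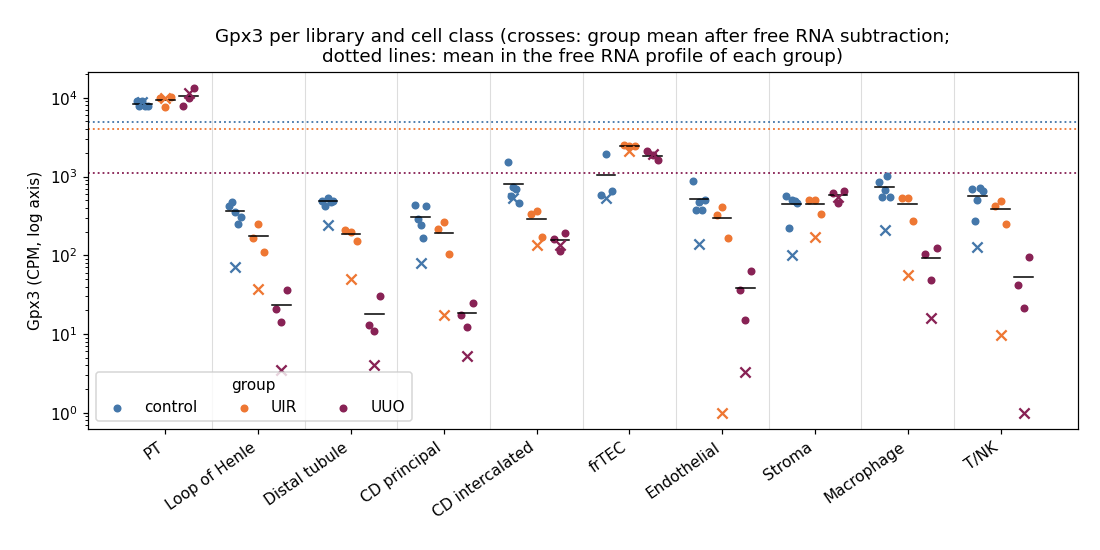
Gpx3 in CPM on a log axis by cell class, each dot a library's pool, with crosses at the group mean after subtraction of free RNA and dotted lines at the mean level of the free RNA of each group. Values under 1 CPM are drawn at 1. PT cells lie at 7709 CPM or more, the UUO dots of the loop of Henle, distal tubule, principal cells, endothelial cells, macrophages and T and NK cells lie at 122 CPM or less, and the groups of stroma overlap.

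UUO and UIR were also compared directly. Of 120 pairs in 12 classes, 110 were tested, with 2 called higher in UUO and 10 lower, 10.9% against 2.03% of all gene and class pairs (0.909% higher, 1.12% lower). The median was -0.14, beside 0.00 over all genes. Both higher calls were in macrophages, where 3 of 9 members were called against 1.59% of all genes. Hmox1 was higher by 1.05 (SE 0.18, adjusted p = 0.00239) and Mt2 by 1.47 (SE 0.32, adjusted p = 0.0163). The Mt2 groups overlapped, and its call was lost under 11 alternatives and turned under 1, among them leaving out UUO replicate 2, whose pool of 156 CPM was the highest (0.87, adjusted p = 0.11), UIR replicate 1 (1.38) or UIR replicate 2 (1.27). Within the shallow macrophage cluster Mt2 differed by 0.10 (adjusted p = 0.958) and Hmox1 by 1.47 (adjusted p = 9.16e-10), while in the deeper cluster Hmox1 differed by 0.72 without a call (adjusted p = 0.108). With the replicate number as a block both calls were lost, Hmox1 at 1.07 (adjusted p = 0.0808) and Mt2 at 1.35 (adjusted p = 0.395), and 2 other differences were called higher, Mt1 in frTECs (1.17, adjusted p = 0.0141) and Mt2 in the loop of Henle (0.38, adjusted p = 0.026).

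Gpx3 made up 8 of the 10 lower calls. It was lower in UUO in the loop of Henle (-2.96, where 3.05% of all genes were called), the distal tubule (-3.42, 2.05%), principal cells (-3.51, 7.68%), endothelial cells (-3.04, 2.71%), macrophages (-2.35), conventional dendritic cells (-3.87, 0.621%), T and NK cells (-2.94, 1.35%) and B cells (-3.53, 0.0976%). The B cell call rested on 2 UIR pools of 22 and 25 cells, and was lost without UUO replicate 2 (adjusted p = 0.221) or 3 (adjusted p = 0.24) and where cells were named one by one (-2.01, adjusted p = 0.449). After subtraction of free RNA the distal tubule call and the loop of Henle call were kept. Calls were lost in principal cells (-1.744, adjusted p = 0.538), macrophages (-1.906, adjusted p = 0.837) and T and NK cells (-6.998, adjusted p = 0.933). These differences stayed negative. The endothelial call was lost as well, and its difference turned to 5.567 (adjusted p = 0.731). The other lower calls were Gclc and Sod2 in principal cells, Sod2 by 0.63 on the log2 scale (SE 0.15, adjusted p = 0.012). The Sod2 call was lost under 6 of 28 alternatives, among them leaving out the mixed cluster (-0.48), UIR replicate 3 (-0.52) or UUO replicate 1 (-0.49). Within the cluster with most injured principal cells Sod2 was at -0.187 (adjusted p = 0.999) and Gclc at -0.357 (adjusted p = 0.999), so both calls were lost there. PT cells (0.00838% of all genes called), intercalated cells (1.8%), frTECs (0.235%) and stroma (2.27%) had 0 members called by edgeR. At an unadjusted p under 0.05 they had 1, 2, 2 and 1, and DESeq2 called 0, 0, 1 and 0.

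Other genes of the same pathways were followed as 7 lists of 70 genes in all. Against control, 91 of 581 gene and class pairs rose and 72 fell in UIR (28.1% called, beside 16.7% of all pairs), and 98 rose and 117 fell in UUO (37%, beside 21.7%). Of the glutathione list 29 of 169 pairs rose and 30 fell in UIR, and 32 rose and 50 fell in UUO. Among the falls in UUO was Gsta2 in endothelial cells (-4.27), stroma (-4.31) and macrophages (-3.92). The summed PT markers of the endothelial pools were 936 to 2244 CPM in control and 53.3 to 116 CPM in UUO, and their part was not tested. The lists were not tested after subtraction of free RNA. The thioredoxin and peroxiredoxin list had 15 higher and 24 lower of 138 in UIR, and 16 and 31 in UUO. NRF2 and its regulators had 9 higher and 0 lower of 66 in UIR (13.6% called either way, beside 16.7% of all pairs). In UUO they had 13 and 1 (21.2%, beside 21.7%). Of all pairs 9.16% in UIR and 11.5% in UUO were called higher. The NADPH list had 9 and 2 of 60 in UIR and 8 and 9 in UUO, the heme and iron list 11 and 11 of 68, then 11 and 16. The metal response list had 0 and 3 of 35 in UIR and 1 and 4 in UUO. The sources of superoxide, with the extracellular dismutase, had 18 and 2 of 45 in UIR (44.4%) and 17 and 6 in UUO (51.1%).

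Some genes of these lists moved in the same cells as the members. Mt3, another metallothionein, fell in the loop of Henle from 19.2 to 0.581 CPM in UIR (-5.38, adjusted p = 1.61e-08) and to 0.176 CPM in UUO (-6.71, adjusted p = 1.07e-08). Gsta4, a glutathione transferase that clears lipid aldehydes, fell there from 99.8 to 14.4 and 6.12 CPM (-3.04 and -4.27). Tfrc, the transferrin receptor, fell in the distal tubule from 258.5 to 36.4 and 17.7 CPM (-3.24 and -4.33). Principal cells gained Cyba, the p22phox subunit of NADPH oxidases, from 44.2 to 275 and 633 CPM (2.55 and 3.70), and Xdh, which codes for xanthine dehydrogenase, from 0.366 to 6.86 and 20.6 CPM (3.53 and 5.10). All of these were called in both injuries.

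Outside the distal nephron, PT cells in UUO had more Mgst1, a membrane-bound glutathione transferase (63.6 to 162 CPM, 1.22, adjusted p = 2.03e-05). Stroma taken whole gained Gpx7, a peroxidase of the endoplasmic reticulum, from 10.1 to 55.9 CPM in UIR and 84.2 CPM in UUO (2.66 and 3.24). In UUO it also gained Sod3, the extracellular superoxide dismutase, from 11 to 89.6 CPM (2.93). Neither gene was compared within stromal clusters, so the part of the changed mix of stromal cells was not tested. In frTECs Gsta2, another glutathione transferase, rose by 5 in UIR and 4.39 in UUO on the log2 scale, over control pools that held few cells. Gsta2 was also the leading gene of the main PT cluster, and the PT marker level of the frTEC pools given above moved with it, a part that was not tested. Macrophages in UIR had more Prdx2, a peroxiredoxin (97.4 to 185 CPM, 0.89, adjusted p = 0.000886). All of these were called.

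Over 127 pools and 9772 genes, the pattern most like that of Mt1 was that of Mt2 (Pearson r = 0.90 of log2 levels), ahead of Gcgr (0.782) and Slc16a7 (0.781). Among the patterns most like that of Gpx3 were those of Keg1 (0.924) and Akr1c21 (0.92), and Hmox1 was most like Ctsa (0.738), Ftl1 (0.732) and Creg1 (0.719). These are descriptions, since the pools share libraries, free RNA and depth.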

How the data were processed

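The deposited files hold raw UMI counts for every barcode, empty droplets included, with no correction for free RNA or doublets. The file headers and the labels name Cell Ranger 3.1.0 on mm10, while the study's methods name a later version. By those methods the study's own analysis also reduced free RNA and removed doublets. Barcodes were kept as cells above a UMI cutoff (a 10th of the 99th percentile among the 3000 deepest barcodes) or, from 500 UMIs, where they differed from the free RNA of ranks 45000 to 90000 (10000 simulations, FDR 0.01), with at least 200 genes and at most 30% mitochondrial and 5% hemoglobin UMIs. The top 7.5% of doublet scores were removed. Cells were clustered (scanpy 1.11.5, 2000 genes, 40 components, 20 exact nearest neighbors with Jaccard weights, Leiden resolution 1) without the members, the pathway lists, the marker genes and the mitochondrial genes, and clusters were named by marker genes. That naming and the clustering were revised after clusters and member values had been seen.

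UMI counts were summed per class and library (at least 20 cells, at least 2 pools per group; 22 to 2149 cells) and tested with edgeR 4.0.16 (quasi-likelihood, TMM, all groups in 1 fit, no covariates, Benjamini-Hochberg over all genes tested in a class) in R 4.3.3, after a test on simulated data. Per pool, the free RNA share was estimated from markers that the class should lack and subtracted as an alternative. The genes and pathway lists were chosen with earlier results of these data known. Genes are named where they are members, or as the leading genes of a list or cluster. Same-numbered UIR and UUO libraries deviated together for number 3 in 11 of 11 classes but not for numbers 1 and 2, so no block was used. The other alternatives were DESeq2 1.42.0, scaling to total UMIs, no expression filter, stricter cell filters, naming cell by cell, and leaving out libraries or the Normal or Additional Normal controls. Leaving out clusters of few UMIs or with a marker of another class, and tests within single clusters, were added after seeing the data.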

Additional observations from a re-analysis of the deposited data

Results flagged for a closer look

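In 8 of 89 groups of control pools, 1 library stood far from the other 4 by Dixon's test at the 95% level, where chance gives about 1 in 20. Control replicate 1 had 343.3 CPM of Sod1 in PT cells (others 196.0 to 231.7 CPM), 262.1 CPM of Sod1 in endothelial cells (208.9 to 221.5 CPM), 871.5 CPM of Gpx3 in endothelial cells (370.2 to 499.9 CPM) and 1507 CPM of Gpx3 in intercalated cells (464.8 to 743.9 CPM). Control replicate 2 had 65.83 CPM of Hmox1 in macrophages (25.15 to 34.7 CPM). Control replicate 3 had 12.1 CPM of Nqo1 in T and NK cells, which is 1 UMI, where the others were at 0. Control replicate 5 had 249.3 CPM of Gclc in PT cells (129.3 to 157.5 CPM) and 20.9 CPM of Nqo1 in stroma (0 to 5.0 CPM).

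The UUO effect differed from the UIR effect, by edgeR's test of UUO against UIR, for Mt2 in macrophages (1.473 on the log2 scale, adjusted p = 0.0163), Hmox1 in macrophages (1.049, adjusted p = 0.00239), and Gclc and Sod2 in principal cells (-0.739, adjusted p = 0.0039, and -0.633, adjusted p = 0.012). For Gpx3 it differed in the loop of Henle (-2.958), distal tubule (-3.419), principal cells (-3.506), endothelial cells (-3.037), macrophages (-2.348) and T and NK cells (-2.942). The Gpx3 level of the free RNA moved the same way, 3959 CPM in UIR and 1094 CPM in UUO.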

How the results depend on the processing

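The 78 called member differences were recomputed under the alternatives. Of 2043 values 1855 kept their direction and call, 181 kept the direction and lost the call, and 7 turned; 33 of the 78 were kept under each alternative that gave a value, among them Mt1 in macrophages, Mt2 in stroma in both injuries (too few counts for a test in its control-rich cluster, with 32.1 CPM in control and 22 CPM in UUO) and in principal cells in UUO, Nqo1 in the distal tubule and Sod2 in the distal tubule and loop of Henle. Within the cluster with most control cells, Mt1 in stroma in UUO became -0.51, Mt2 in macrophages between UUO and UIR -0.12, Gpx3 in frTECs in UIR -0.58 and Txnrd1 in principal cells in UIR -0.10. Within that with most injured cells Hmox1 in macrophages in UIR became -0.054, after subtraction of free RNA Gpx3 in endothelial cells between UUO and UIR became 5.57, and with total UMIs Sod1 in the distal tubule in UIR became 0.008. The cause was not tested. The counts of calls moved by over 1.5 times as follows. Scaling to total UMIs gave 14 higher and 11 lower in UIR, 17 lower in UUO and 4 higher in UUO against UIR. With a mitochondrial limit of 15%, which left 48 pairs to test, UIR had 3 higher and 6 lower and UUO 6 and 10. Within the cluster with most control cells (66, 50 and 54 pairs) UIR had 3 and 6, UUO 2 and 8, and UUO against UIR 0 and 5; within that with most injured cells (43 pairs) UIR had 1 and 2 and UUO 2 and 9. Barcodes over the UMI cutoff alone (76 pairs) gave 5 higher in UIR, 8 in UUO and 1 between them. With no expression filter 13 were higher in UIR and 5 in UUO against UIR. For that comparison 1 was higher with only its 2 groups fitted or without the Additional Normal controls, and 4 were lower after subtraction of free RNA. Leaving out single libraries gave 6 to 10 higher and 13 to 19 lower in UIR, 11 to 14 and 22 to 29 in UUO, and 1 to 5 and 9 to 10 between them, with 5 without UIR replicate 3 and 1 without UIR replicate 1, UIR replicate 2 or UUO replicate 2. Without clusters that hold a marker of another class, 62 of 63 calls were kept, and the 15 calls in the distal tubule got no value, since its injured pools came mostly from such a cluster.

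The pairing check differed by number. The deviations of the UIR and UUO libraries numbered 3, which carry no number in their labels, correlated at 0.125 to 0.389 in 11 of 11 classes, those of number 1 at -0.082 to 0.167 (over 0.1 in 3) and of number 2 at -0.201 to 0.065, so the numbers were not taken to pair the libraries. With the replicate number as a block, 2 members were higher and 15 lower in UUO against UIR in place of 2 and 10. Both higher calls differ between the fits (Hmox1 and Mt2 in macrophages without the block, Mt1 in frTECs and Mt2 in the loop of Henle with it), and the 5 added lower calls were Mt1, Mt2 and Gpx3 in intercalated cells, Mt2 in stroma and Sod2 in the loop of Henle. Control labels number the Normal and the Additional Normal libraries separately, so no block was fitted there; 1 control library, replicate 1, carries no number, like 1 library of each injury, and no fit with this as a term was made. Alternatives gave no value for classes left with under 2 pools in a group. Depth limited Nqo1 in immune, stromal and intercalated cells, Hmox1 in T and NK cells, and Mt2, Hmox1 and Nqo1 in control frTECs (10, 1 and 13 UMIs).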

Other observations

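Neutrophils and monocytes had too few control cells for a comparison, so their values stand alone. In the 3 UUO pools, of 71 to 126 neutrophils, Mt1 was 193 to 553 CPM, Hmox1 85.3 to 168 CPM, Txnrd1 134 to 150 CPM and Sod2 136 to 359 CPM. UUO monocytes, 54 to 75 per pool, had 40.5 to 67.4 CPM of Mt1, 59.8 to 75.9 CPM of Hmox1, 21.9 to 41.3 CPM of Txnrd1 and 126 to 130 CPM of Sod2. The 2 cell types were not tested against each other, because the pools come from the same libraries. In the UUO pools the ranges of Nqo1, Gpx3, Gclc and Cat overlapped between them and those of the other members did not. The share over all genes was not counted, so this overlap shows nothing particular to the members.

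Conventional dendritic cells had 162 ± 75.9 CPM of Mt1 in UIR and 167 ± 22 CPM in UUO, beside 431 ± 105 and 620 ± 100 CPM in the macrophages of the same libraries. Their Sod1 was 174 ± 15.7 and 167 ± 20.7 CPM, beside 79.9 ± 2.69 and 80.2 ± 7 CPM in macrophages.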
